A study of Homo sapiens with 12 samples.

Results

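The genes described are those of 3 groups of splicing regulators: SR proteins with the related TRA2 proteins, the CLK kinases, and the heterogeneous nuclear ribonucleoproteins (hnRNPs). They were taken by symbol. All rows named SRSF, TRA2 or CLK with the number or letter of a family member were kept, with all rows that begin with HNRNP, except 69 rows whose names end as those of processed pseudogenes do. This gave 39 of the 24641 gene symbols counted: 11 SRSF genes, TRA2A and TRA2B, 4 CLK genes and 22 HNRNP genes. Of these, 38 had counts high enough to test, and the read-through symbol HNRNPUL2-BSCL2, with 0 to 6 counts per library, did not.

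Messenger RNA came from MDA-MB-231, an established triple-negative breast cancer cell line of mesenchymal character. Cells of the line shControl, labelled wild type, carried a control hairpin, and cells of the line shRIPOR3 carried a hairpin against RIPOR3, so that every library came from hairpin-carrying cells. Each line was kept in normoxia, or in hypoxia at 1% O2 for 24 hours. All were at 37 °C and 5% CO2 in DMEM to which 10% serum and 1% penicillin-streptomycin had been added. Each of the 4 groups had 3 libraries. Library names carry 1 hairpin code against RIPOR3. The oxygen level of normoxia is not given, nor is whether each line is a clone or a pool.

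SR proteins bind exonic enhancers in pre-mRNA and help the spliceosome to recognise the exon, while hnRNPs coat nascent transcripts and often hold exons or splice sites back. CLK kinases, like the SRPK kinases, phosphorylate the arginine-serine domain of SR proteins and so set where these proteins reside and what they bind. Many of these genes limit their own level by splicing in a poison exon or keeping an intron, which sends the transcript to nonsense-mediated decay. GENCODE 29 annotates a transcript subject to nonsense-mediated decay for 16 of the 17 tested SRSF, TRA2 and CLK genes, CLK2 being the exception, and for 13 of the 21 tested HNRNP genes. Among all 12370 tested protein-coding genes the share was 43.1%. The counts sum all transcripts of a gene, so a poison-exon form and a coding form were not told apart.

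The stretch upstream of the first annotated transcribed base is shown for the 4 members with the largest decreases in hypoxia in shControl, and for HNRNPA0 and CLK1, which rose there. The sequences are RefSeq promoter windows of GRCh38.p14, 5′ to 3′ on the strand of the gene, and capitals mark the cores ACGTG or GCGTG on either strand, the letters that HIF factors bind.
SRSF1, chr17:58007347-58007496, minus strand: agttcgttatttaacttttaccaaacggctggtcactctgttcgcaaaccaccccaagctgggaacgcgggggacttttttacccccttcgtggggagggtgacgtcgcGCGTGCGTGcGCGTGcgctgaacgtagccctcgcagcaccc
HNRNPC, chr14:21269495-21269692, minus strand: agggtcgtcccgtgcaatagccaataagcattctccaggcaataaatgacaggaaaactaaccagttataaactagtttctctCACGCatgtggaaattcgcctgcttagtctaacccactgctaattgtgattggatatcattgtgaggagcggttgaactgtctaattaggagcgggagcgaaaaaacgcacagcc
SRSF3, chr6:36594112-36594352, plus strand: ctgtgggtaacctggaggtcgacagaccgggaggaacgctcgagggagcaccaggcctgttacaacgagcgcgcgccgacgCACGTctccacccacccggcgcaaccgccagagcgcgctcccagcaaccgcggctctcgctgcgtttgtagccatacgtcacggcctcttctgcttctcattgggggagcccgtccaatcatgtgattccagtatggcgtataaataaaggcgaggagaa
SRSF7, chr2:38751495-38751744, minus strand: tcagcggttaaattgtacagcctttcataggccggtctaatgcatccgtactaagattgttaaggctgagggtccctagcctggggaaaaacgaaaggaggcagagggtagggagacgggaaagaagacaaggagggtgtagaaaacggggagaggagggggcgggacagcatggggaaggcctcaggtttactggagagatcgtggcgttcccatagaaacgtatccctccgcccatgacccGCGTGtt
HNRNPA0, chr5:137754377-137754613, minus strand: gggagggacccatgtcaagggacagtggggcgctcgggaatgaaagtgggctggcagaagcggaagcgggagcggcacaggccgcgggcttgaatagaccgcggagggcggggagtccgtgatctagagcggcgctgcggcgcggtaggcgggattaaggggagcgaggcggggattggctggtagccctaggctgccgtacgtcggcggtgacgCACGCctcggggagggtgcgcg
CLK1, chr2:200864745-200864908, minus strand: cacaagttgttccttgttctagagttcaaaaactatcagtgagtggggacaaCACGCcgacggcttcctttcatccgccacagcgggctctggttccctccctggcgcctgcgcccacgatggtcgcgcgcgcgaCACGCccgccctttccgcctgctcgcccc
A core stood in each of the 6 stretches, in members that fell and in members that rose. That does not hold for every member. The windows of SRSF5, which rose more than CLK1, and of HNRNPAB and HNRNPA2B1, which fell, held no core. RefSeq windows were found for 36 of the 39 members, as 52 windows. A core lay within the 250 bases upstream of the start in 41 of the 52 windows (78.8%), against 54.4% of the 15251 windows of all tested symbols and 43.2% of the 35116 windows in the table. A match of these letters is a description of the sequence.

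Sequencing was deeper in hypoxia (31781324 to 52526813 counts per library) than in normoxia (14750734 to 30032858), and the members took 2.36% to 2.66% of each. RIPOR3 had 7, 3 and 7 counts in normoxia shControl, 0, 0 and 1 in normoxia shRIPOR3, 33, 18 and 30 in hypoxia shControl, and 9, 3 and 11 in hypoxia shRIPOR3, lower with its hairpin at both oxygen levels (adjusted p = 0.00130 and 1.69e-06). All 6 mesenchymal markers passed the count filter, with summed levels of 2076 to 2516 CPM (counts scaled to library size), and 6 of 7 luminal markers did, with 1154 to 1511 CPM. No blood or hepatocyte marker passed. Of 3 endothelial markers 2 passed, and their sum moved with the groups: 7.15 to 8.33 CPM in normoxia shControl, 2.24 to 3.01 in normoxia shRIPOR3, 12.8 to 13.6 in hypoxia shControl and 3.18 to 4.37 in hypoxia shRIPOR3. Of 3 fibroblast markers 1 passed, and the sum was 1.59 to 7.28 CPM. Their part in the results was not tested. In bulk RNA, fewer cells of a kind and less RNA per cell cannot be told apart, and since no label speaks of separate cultures, p-values reflect only the variation among these libraries, some or all of which may be technical.

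Levels spanned a wide range. Per kilobase of annotated exon in normoxia shControl, HNRNPA1, which packages nascent RNA and blocks 3′ splice sites, stood at 643 CPM, HNRNPA2B1 at 487 and HNRNPAB at 459. The highest SR proteins on this scale were SRSF9 with 106 and SRSF3 with 90.3 CPM per kilobase, and CLK1, the highest kinase, had 15.7. The order depends on the division by exon length. Without it HNRNPA2B1 stood at 4516 CPM and HNRNPA1 at 3274, and SRSF3 at 643 and SRSF9 at 398. Some levels are uncertain because reads can be shared. The exons of SRSF1 overlap those of other annotated genes over 60.7% of their length, those of SRSF9 over 46.2%, HNRNPUL2 over 44.1%, SRSF2 over 36.7%, HNRNPH2 over 16.3% and HNRNPU over 15.6%, and it is not stated whether the counting used strand. The 39 pseudogene rows of HNRNPA1 held counts equal to 15.6% to 18.0% of those of the gene, and the 11 rows of HNRNPA3 held 6.53% to 7.26%. What part of those reads came from the parent genes was not tested.

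**Figure D1:**
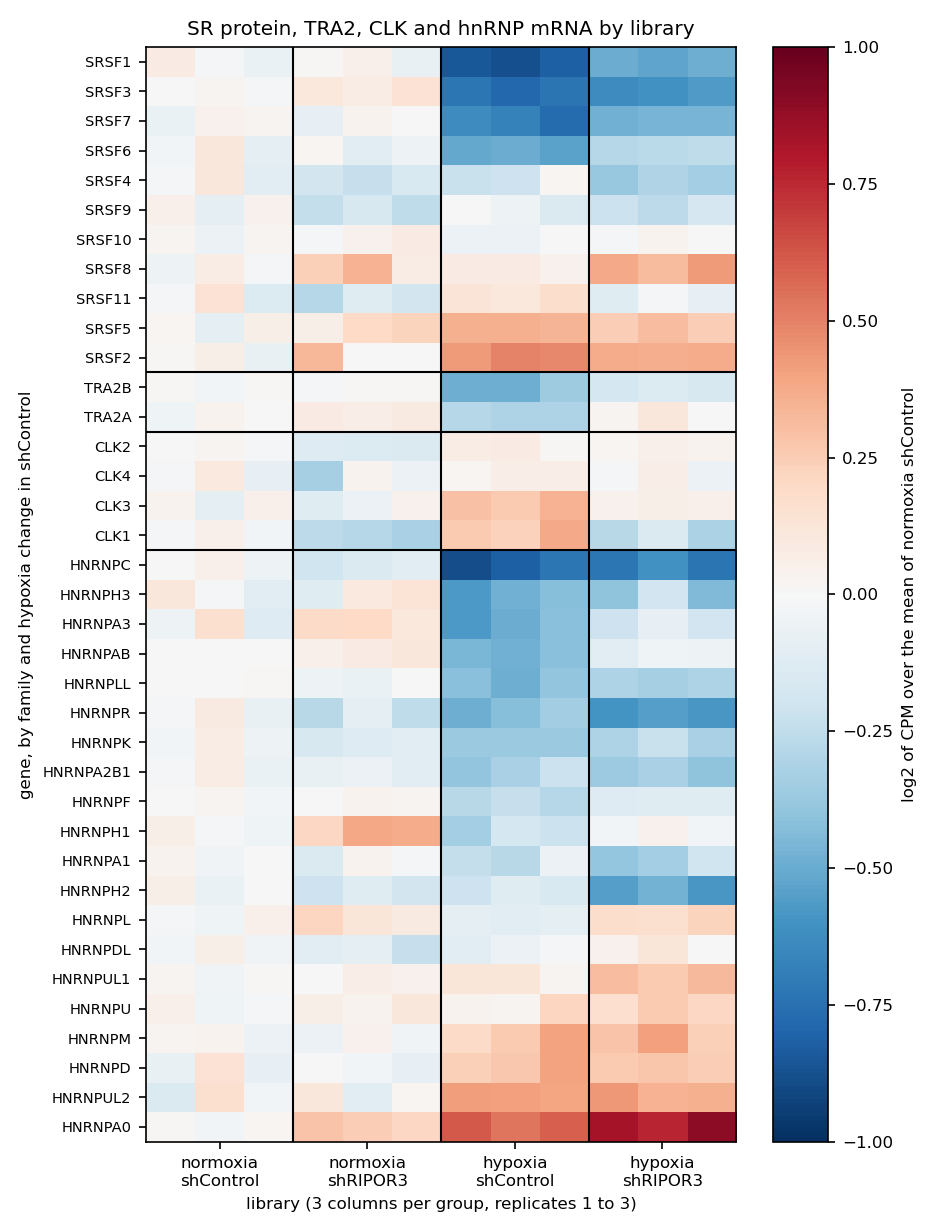
Each row is 1 of 37 members and each column 1 of the 12 libraries, and the colour gives the log2 level (TMM-normalised CPM) relative to the mean of the 3 normoxia shControl libraries. SRSF1, SRSF3, SRSF7 and HNRNPC are low in all 6 hypoxia libraries and HNRNPA0 is high in them. HNRNPCL1, the weakest tested member, and HNRNPUL2-BSCL2 are left out.

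Hypoxia against normoxia in shControl asked what low oxygen does to these genes in cells with the control hairpin. The largest decreases were in SRSF1, SRSF3, SRSF6 and SRSF7 among the SR proteins and in HNRNPC, and both TRA2 genes also fell. HNRNPA0, SRSF2, HNRNPUL2, SRSF5 and HNRNPD rose, as did the kinases CLK1 and CLK3. Of the 38 members tested, 10 rose, 20 fell and 8 did not pass the test, an adjusted p under 0.05 in edgeR's quasi-likelihood test. Over all 15648 genes 64.8% passed, 32.4% higher and 32.4% lower, and the median log2 fold change was -0.15 for the members and 0.02 for all genes. Members are mostly abundant, and so are many genes that fell: among the 2086 genes with a mean above 100 CPM 85.7% passed with a median of -0.22, and among the 26 members above that level 22 passed, also with a median of -0.22. Scaling by library totals alone raised the median of all genes by 0.11 and gave 14 members higher and 16 lower.

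Of the 11 SR proteins, 3 rose, 5 fell and 3 did not pass (4 and 4 with library totals). SRSF1 (chr17:58003360-58007346, minus strand), the founding SR protein and a known oncoprotein in breast epithelium, measured 85.5, 79.5 and 77.0 CPM in the normoxia libraries and 44.7, 44.0 and 45.7 CPM in the hypoxia libraries. The groups lie far apart, with a log2 fold change of -0.85 ± 0.0441 (SE), or 1.80-fold lower (edgeR adjusted p = 3.28e-14). SRSF3 (chr6:36594353-36605600), which couples splicing to mRNA export, went from 639.5, 654 and 634 CPM to 389.8, 372 and 387 CPM. That is a log2 fold change of -0.75 ± 0.0365 (edgeR adjusted p = 1.10e-14), with no overlap between the groups. SRSF7 (chr2:38743599-38751494), a close relative of SRSF3 and likewise an adapter for mRNA export, was at 297, 320.1 and 317 CPM in normoxia and 202, 195 and 182 CPM in hypoxia, a change of -0.69 ± 0.0424. For SRSF6 (chr20:43457928-43464247), the values were 141, 155 and 134 CPM against 100.3, 102 and 98.7 CPM, a change of -0.51 ± 0.0443. Every hypoxia library lay below every normoxia library for these 4 genes. SRSF4, a close relative of SRSF6, moved little: 523, 573 and 493 CPM against 454, 458 and 536 CPM, a change of -0.13 ± 0.0550 that passed the test (adjusted p = 0.0387) although the groups overlap. That call was lost with library totals and without normoxia shControl replicate 2 or hypoxia shControl replicate 1 or 2 (adjusted p up to 0.218 without a library).

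In the other direction, SRSF2 (chr17:76734115-76737374, minus strand), an SR protein that stays in the nucleus, had 18.4, 19.0 and 17.3 CPM in normoxia and 24.4, 25.7 and 25.4 CPM in hypoxia. Its log2 fold change was 0.47 ± 0.0655 (edgeR adjusted p = 8.55e-07), and the groups do not overlap. SRSF5 (chr14:69726900-69772005), known for its part in insulin-responsive splicing, rose from 244, 226 and 251 CPM to 308, 307 and 304 CPM, a change of 0.35 ± 0.0436. SRSF11, with 275 ± 27.0 CPM and 303 ± 7.86 CPM (SD, n = 3) in overlapping groups, passed at 0.14 ± 0.0527. Without normoxia shControl replicate 3 its change was 0.07 (adjusted p = 0.245), and the call was also lost without normoxia shControl replicate 1 or hypoxia shControl replicate 3. SRSF8, SRSF9 and SRSF10 gave 0.08, -0.07 and -0.04 and did not pass.

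Both TRA2 genes, which encode sequence-specific activators that bind GAA-rich enhancers together with SR proteins, fell. TRA2B (chr3:185915906-185938136, minus strand) had 392, 380.0 and 392 CPM in normoxia and 276, 276 and 303 CPM in hypoxia, a log2 fold change of -0.45 ± 0.0387 (edgeR adjusted p = 3.69e-10). TRA2A (chr7:23504780-23532041, minus strand) had 82.3, 86.8 and 85.0 CPM and 69.4, 68.3 and 68.3 CPM, a change of -0.30 ± 0.0390 (adjusted p = 3.08e-07). In neither gene did the groups overlap.

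Among the kinases, CLK1 (chr2:200853009-200864744, minus strand) rose from 80.2, 84.2 and 79.6 CPM to 97.4, 95.6 and 106 CPM, a log2 fold change of 0.30 ± 0.0461 (edgeR adjusted p = 4.82e-06). The highest value is that of hypoxia shControl replicate 3, and all 3 hypoxia libraries lie above normoxia. CLK3 (chr15:74598500-74645414) had 58.6, 53.7 and 59.1 CPM and 70.1, 68.5 and 72.6 CPM, a change of 0.29 ± 0.0446. CLK2 and CLK4, at 46.4 ± 0.750 and 31.1 ± 1.97 CPM in normoxia (SD, n = 3), gave 0.06 and 0.06 and did not pass, with overlapping groups. With library totals all 4 CLK genes passed as higher, CLK2 at 0.17 (adjusted p = 0.000911) and CLK4 at 0.17 (adjusted p = 0.0178). The summed CLK level was 216 ± 2.24 CPM in normoxia and 250.5 ± 6.33 CPM in hypoxia, while the summed SRSF level was 3135 ± 45.4 and 2703 ± 42.3 CPM (SD, n = 3).

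**Figure D2:**
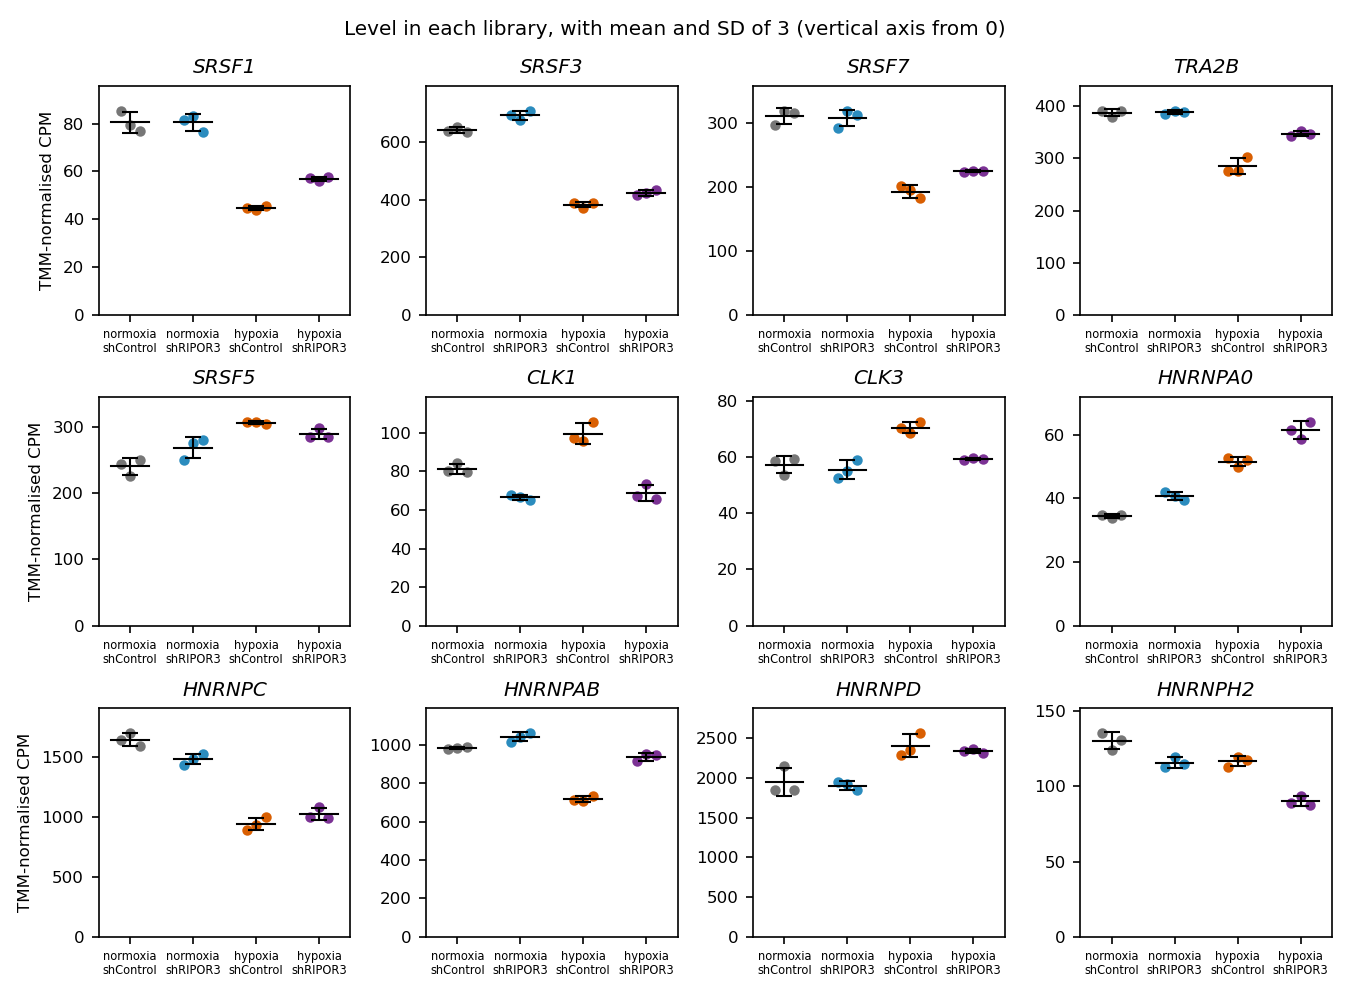
TMM-normalised CPM of 12 members in each library (points, 3 per group) with the group mean and SD (long and short bars), for normoxia and hypoxia in shControl and shRIPOR3. SRSF1, TRA2B and HNRNPAB in hypoxia lie lower in shControl than in shRIPOR3, and CLK1 lies higher in shControl.

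Of the 21 HNRNP genes tested, 5 rose, 13 fell and 3 did not pass (6 and 10 with library totals). HNRNPC (chr14:21209136-21269494, minus strand), which binds uridine tracts and masks cryptic splice sites, measured 1645, 1709 and 1596 CPM in normoxia and 892, 937 and 998 CPM in hypoxia. With a log2 fold change of -0.81 ± 0.0453 it was 1.75-fold lower (edgeR adjusted p = 1.31e-13), and the groups lie apart. HNRNPA0 (chr5:137745651-137754376, minus strand), a member of the A/B subfamily that binds AU-rich elements, went the other way, from 34.7, 33.7 and 34.8 CPM to 52.6, 49.9 and 52.0 CPM. Its change was 0.58 ± 0.0454 (adjusted p = 5.95e-11). The other members whose symbols begin with HNRNPA fell, with log2 fold changes of -0.49 for HNRNPA3, -0.45 for HNRNPAB, -0.31 for HNRNPA2B1 and -0.19 for HNRNPA1. The call of HNRNPA1 was lost with library totals (-0.08, adjusted p = 0.18). HNRNPAB, a regulator of mRNA transport and transcription, had 980.4, 983 and 988 CPM and 715, 706 and 736 CPM. HNRNPD, or AUF1, which controls the decay of AU-rich messages, rose from 1854, 2158 and 1845 CPM to 2297, 2353 and 2575 CPM, a change of 0.30 ± 0.0515. HNRNPDL, its near relative, did not pass at -0.06. HNRNPUL2, a relative of HNRNPU with a role in DNA repair, had 39.2, 48.3 and 42.5 CPM against 57.9, 57.5 and 56.9 CPM, a change of 0.42 ± 0.0565.

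All 4 members of the H/F subfamily, which bind runs of guanines, fell, with -0.49 for HNRNPH3, -0.26 for HNRNPF, -0.24 for HNRNPH1 and -0.16 for HNRNPH2 on the log2 scale. HNRNPH2 did not pass with library totals (-0.05, adjusted p = 0.253). HNRNPLL, HNRNPR and HNRNPK gave -0.43, -0.42 and -0.37 and passed as lower. HNRNPM passed as higher at 0.29. The calls of HNRNPL (-0.10) and HNRNPUL1 (0.09) were the weakest: each was lost in several settings, among them without normoxia shControl replicate 3 (adjusted p = 0.147 and 0.0895) or hypoxia shControl replicate 1 (0.0586 and 0.143) or 2 (0.0675 and 0.116), and HNRNPUL1 also without normoxia shControl replicate 1 or 2. With library totals HNRNPL stood at 0.01. HNRNPU and HNRNPCL1 did not pass.

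Hypoxia against normoxia in shRIPOR3 put the same question to cells with the RIPOR3 hairpin. The largest increases were in HNRNPA0, HNRNPUL2, HNRNPM, HNRNPD and SRSF2. SRSF3, HNRNPC, SRSF1, SRSF7 and HNRNPH3 had the largest decreases. Of the 38 members 12 rose, 18 fell and 8 did not pass the edgeR test, against 55.6% of all genes that passed, 25.2% higher and 30.4% lower. The median log2 fold change was -0.03 for the members and -0.01 for all genes, and -0.15 and -0.18 above 100 CPM, where 23 of 26 members and 82.3% of all genes passed. Library totals alone raised the median of all genes by 0.12 and gave 18 members higher and 12 lower. Of all genes called under that scaling 63.4% were higher, up from 45.3%, and of the called members 60%, up from 40%.

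Among SR proteins 4 rose and 5 fell (6 and 3 with library totals). SRSF1 measured 81.5, 83.4 and 76.7 CPM in normoxia and 57.3, 56.0 and 57.5 CPM in hypoxia, a log2 fold change of -0.50 ± 0.0427 (edgeR adjusted p = 5.75e-10). SRSF3 went from 693, 678 and 711 CPM to 416, 422 and 434 CPM, a change of -0.71 ± 0.0363. SRSF7 went from 293, 319 and 312 CPM to 223, 226 and 226 CPM, a change of -0.46 ± 0.0420. In each of these 3 genes the highest hypoxia library lies below the lowest normoxia library.

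SRSF6, with 145, 133 and 138 CPM and 117, 119 and 120.0 CPM, fell with a change of -0.22 ± 0.0436, a call that library totals took to an adjusted p of 0.055. SRSF2 had 22.9, 18.2 and 18.2 CPM in normoxia and 23.6, 23.5 and 23.6 CPM in hypoxia, a change of 0.28 ± 0.0640, the lowest hypoxia library lying just above the highest normoxia library. SRSF5 had 250.3, 276 and 281 CPM and 285, 298 and 285 CPM, and passed at 0.10 ± 0.0433 (adjusted p = 0.0454). The call of SRSF5 was lost when any library of the comparison other than normoxia shRIPOR3 replicate 3 was left out, with a change of 0.05 without normoxia shRIPOR3 replicate 1 (adjusted p = 0.311). SRSF4, SRSF8 and SRSF11, at -0.15, 0.16 and 0.12, passed but each lost its call without 1 of several libraries: SRSF4 without normoxia replicate 3 or hypoxia replicate 1 of shRIPOR3, SRSF8 without normoxia replicate 3 (0.07, adjusted p = 0.393) or hypoxia replicate 1 or 3, and SRSF11 without normoxia replicate 1 (0.08, adjusted p = 0.239) or 3 or hypoxia replicate 2 or 3. The call of SRSF4 was also lost with library totals (-0.03, adjusted p = 0.659) and with a filter of 1 CPM in 3 libraries (adjusted p = 0.0548). SRSF9 and SRSF10 did not pass.

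TRA2B had 385, 391 and 390.0 CPM in normoxia and 343, 353 and 347 CPM in hypoxia, a log2 fold change of -0.16 ± 0.0384 (edgeR adjusted p = 0.000920) that did not pass with library totals (-0.04, adjusted p = 0.36). TRA2A had 89.8, 88.8 and 90.1 CPM and 86.1, 91.6 and 84.6 CPM in overlapping groups and did not pass, at -0.04 ± 0.0379 (adjusted p = 0.439). CLK1 had 67.8, 66.9 and 65.1 CPM and 67.2, 73.4 and 65.5 CPM, also overlapping, and did not pass, at 0.04 ± 0.0474 (adjusted p = 0.448). CLK3 had 52.5, 54.9 and 59.0 CPM and 58.9, 59.5 and 59.1 CPM, at 0.09 ± 0.0447, and CLK4 gave 0.09, neither passing. CLK2, a kinase of the same family, passed at 0.17 ± 0.0395, from 42.5, 42.1 and 42.0 CPM to 46.9, 48.0 and 47.5 CPM. With library totals all 4 kinases passed as higher, CLK1 at 0.17 (adjusted p = 0.00358), CLK3 at 0.21 (adjusted p = 0.000231) and CLK4 at 0.21 (adjusted p = 0.00493).

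Among HNRNP genes 7 rose and 12 fell (8 and 9 with library totals). HNRNPC fell from 1439, 1491 and 1531 CPM to 1002, 1086 and 995 CPM, a log2 fold change of -0.53 ± 0.0451 (edgeR adjusted p = 4.54e-10). HNRNPA0 rose from 42.0, 40.7 and 39.6 CPM to 61.3, 58.5 and 64.1 CPM, a change of 0.60 ± 0.0434. HNRNPAB had 1018, 1044 and 1065 CPM and 916, 953 and 950.2 CPM, a change of -0.15 ± 0.0357. The groups of all 3 genes lie apart, though HNRNPAB did not pass with library totals (-0.03, adjusted p = 0.496), and neither did HNRNPF or HNRNPK. HNRNPH3 fell (-0.39), and HNRNPM, HNRNPD and HNRNPUL2 rose by 0.33, 0.29 and 0.38. The remaining calls ran from -0.37 in HNRNPR to 0.26 in HNRNPUL1. HNRNPU, at 0.14, lost its call without replicate 2 of normoxia or of hypoxia shRIPOR3 (adjusted p = 0.061 and 0.0682). HNRNPL and HNRNPCL1 did not pass.

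Whether the response to hypoxia itself differed between the lines was tested as an interaction, the log2 fold change in shRIPOR3 minus that in shControl. It passed the edgeR test for 14 of the 38 members, 10 above 0 and 4 below, against 23.2% of all genes, 10.9% above and 12.3% below. The medians were 0.06 for the members and -0.02 for all genes. Above 100 CPM 10 of 26 members passed and 39.3% of all genes did, a share close to that of the members. Without hypoxia shControl replicate 3, 14 members lay above 0 and 1 below.

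The differences above 0 were in SRSF1 (0.35 ± 0.0613, SE), SRSF6 (0.29 ± 0.0621) and SRSF7 (0.23 ± 0.0596) of the SR proteins. Their edgeR adjusted p-values were 0.000182, 0.00160 and 0.00604, and each gene fell less in hypoxia in shRIPOR3 than in shControl. SRSF3 fell in both lines, with changes of -0.75 and -0.71 and a difference of 0.04 ± 0.0513 that did not pass. TRA2A differed by 0.26 ± 0.0543 (adjusted p = 0.000983) and TRA2B by 0.28 ± 0.0545 (adjusted p = 0.000506). For HNRNPAB the difference was 0.30 ± 0.0506 (adjusted p = 0.000117), the smallest p among the members, and for HNRNPC it was 0.27 ± 0.0637 (adjusted p = 0.00276). HNRNPDL did not pass in shControl (-0.06) and rose in shRIPOR3 (0.20), with a difference of 0.26 ± 0.0620 (adjusted p = 0.00328). HNRNPK and HNRNPUL1 differed by 0.22 and 0.17, the latter losing its call without replicate 1 of either normoxia group or replicate 1 or 3 of hypoxia shRIPOR3 (adjusted p up to 0.0591).

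The differences below 0 were in SRSF5, CLK1, CLK3 and HNRNPH2. SRSF5 rose by 0.35 in shControl and by 0.10 in shRIPOR3, a difference of -0.24 ± 0.0615 (edgeR adjusted p = 0.00549). CLK1 differed by -0.25 ± 0.0661 (adjusted p = 0.00725). Without hypoxia shControl replicate 3, its highest library, the difference of CLK1 was -0.17 and did not pass (adjusted p = 0.0627). CLK3 differed by -0.21 ± 0.0632 (adjusted p = 0.0193), a call lost without normoxia shControl replicate 2, normoxia shRIPOR3 replicate 3 or hypoxia shControl replicate 3 (adjusted p up to 0.113). HNRNPH2 fell in both lines and by more in shRIPOR3, with a difference of -0.20 ± 0.0580 (adjusted p = 0.0139) that was lost without normoxia shRIPOR3 replicate 2 or hypoxia shControl replicate 2 or 3 (up to 0.0987). The calls of CLK3 and HNRNPH2 were also lost with no low-count filter (adjusted p = 0.0708 and 0.0531). Both were lost too after every library was thinned to the smallest total (adjusted p = 0.0605 and 0.0830). CLK2 and CLK4, at 0.11 and 0.03, did not pass. HNRNPA0 rose in both lines, with a difference of 0.02 ± 0.0631.

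**Figure D3:**
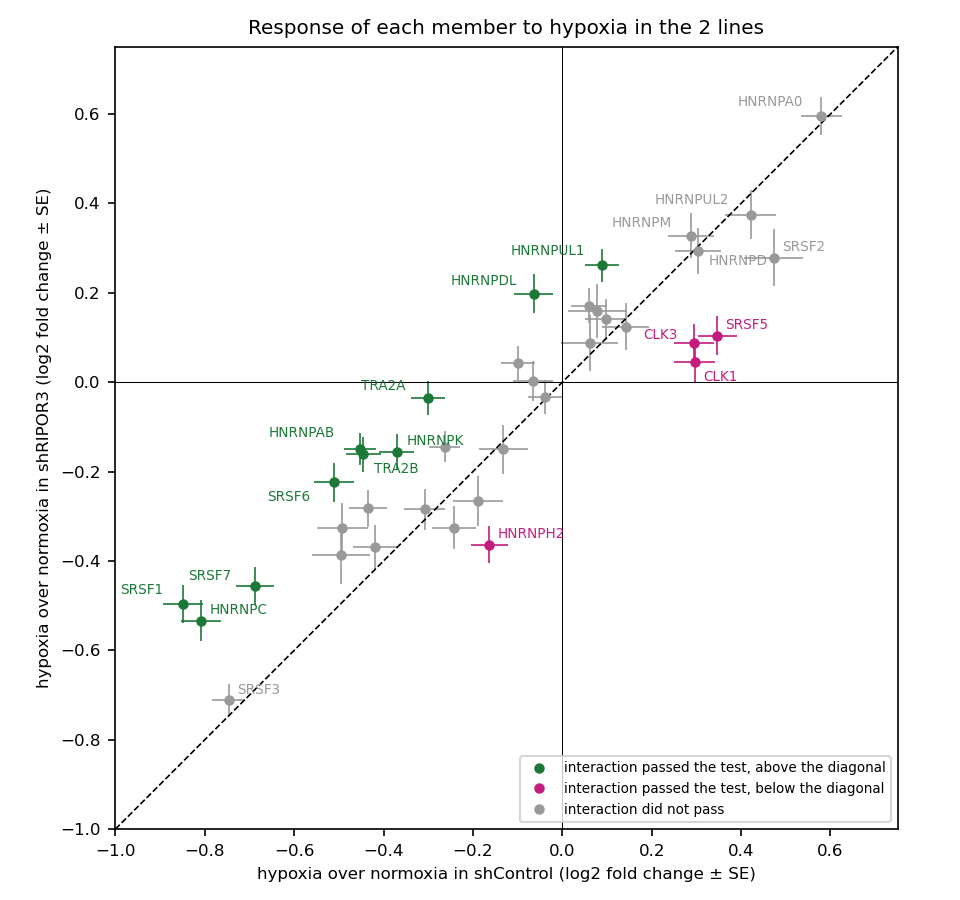
Each point is 1 of 37 tested members, with its log2 fold change (hypoxia over normoxia, ± SE) in shControl on the horizontal axis and in shRIPOR3 on the vertical axis, and the dashed line marks equal change. Green points above the line include SRSF1, TRA2A and HNRNPAB, and the pink points below it are SRSF5, CLK1, CLK3 and HNRNPH2. HNRNPCL1, which did not pass in any comparison, is left out.

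Comparing shRIPOR3 with shControl in normoxia asked what the RIPOR3 hairpin does without low oxygen. Log2 fold changes of the members lay between -0.30 and 0.32. Among members that passed with groups apart, HNRNPH1, HNRNPA0 and SRSF8 had the largest increases and CLK1, SRSF9 and HNRNPR the largest decreases. Of the 38 members 7 were higher, 10 lower and 21 did not pass the edgeR test, against 45.7% of all genes that passed, 25.1% higher and 20.6% lower. The median log2 fold change was -0.01 for the members and 0.03 for all genes. Above 100 CPM 13 of 26 members and 66.2% of all 2086 genes passed, with medians of -0.01 and 0.03.

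SR proteins were split, 3 higher and 3 lower of 11, and neither TRA2 gene passed (0.08 for TRA2A and 0.00 for TRA2B). SRSF9 (chr12:120461668-120469793, minus strand), a small SR protein, had 412, 371 and 409.9 CPM in shControl and 338, 355 and 334 CPM in shRIPOR3. Every shRIPOR3 library lay below every shControl library, with a log2 fold change of -0.22 ± 0.0456 (edgeR adjusted p = 0.000362). SRSF4 had 466, 450.5 and 477 CPM in shRIPOR3, a change of -0.19 ± 0.0554 that did not pass without normoxia shControl replicate 2, its highest library (adjusted p = 0.0657). SRSF8 (chr11:95067197-95071224), a retrogene related to SRSF2, had 15.9, 17.3 and 16.2 CPM in shControl and 19.5, 21.0 and 17.4 CPM in shRIPOR3, a change of 0.23 ± 0.0692, lost without normoxia shRIPOR3 replicate 2 (0.15, adjusted p = 0.0991). SRSF3 passed at 0.11, a call lost without replicate 3 of either line (adjusted p = 0.0579 and 0.0797). SRSF5 (0.16) and SRSF11 (-0.19) passed with overlapping groups, and SRSF11 did not pass without normoxia shControl replicate 2 (adjusted p = 0.0555). SRSF1, SRSF6 and SRSF7, which fell in hypoxia, stood at -0.01, -0.04 and -0.01 here and did not pass.

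Of the 4 kinases 2 were lower in shRIPOR3. CLK1 was lower in shRIPOR3 in each library, with a log2 fold change of -0.29 ± 0.0492 (edgeR adjusted p = 3.67e-05). CLK2 was lower by less, at -0.13 ± 0.0423 (adjusted p = 0.0112), and did not pass when no low-count filter was applied (adjusted p = 0.071). CLK3 and CLK4 gave -0.04 and -0.08 and did not pass. The summed CLK level was 187, 196 and 196 CPM in the shRIPOR3 libraries.

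Among HNRNP genes 4 were higher, 5 lower and 12 did not pass. HNRNPH1 (chr5:179614178-179634784, minus strand), a regulator that binds guanine runs, had 1249.7, 1180.3 and 1164 CPM in shControl and 1382, 1567 and 1546 CPM in shRIPOR3. The groups do not overlap, and the log2 fold change was 0.32 ± 0.0486 (edgeR adjusted p = 6.86e-06). Its paralog HNRNPH2 (chrX:101408295-101414133) went the other way, with 136, 124 and 131 CPM in shControl, 113, 119.6 and 115 CPM in shRIPOR3 and a change of -0.18 ± 0.0420. HNRNPA0 was higher at 0.24 ± 0.0489, and HNRNPL, which binds CA repeats, at 0.14 ± 0.0390. HNRNPR, a relative of SYNCRIP, was lower at -0.21 ± 0.0493. HNRNPC, HNRNPDL and HNRNPK passed as lower, with -0.15, -0.14 and -0.13. The last 2 of these calls were lost without 1 library, HNRNPDL without normoxia shRIPOR3 replicate 3 (adjusted p = 0.0915) and HNRNPK without normoxia shControl replicate 2 (adjusted p = 0.0656). HNRNPA3 passed as higher at 0.17 with overlapping groups. It moved to 0.25 without normoxia shControl replicate 2, and did not pass without replicate 1 or 3 of normoxia shControl or replicate 1 or 2 of normoxia shRIPOR3 (adjusted p up to 0.145).

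In hypoxia, shRIPOR3 against shControl gave more members higher than lower. HNRNPAB, TRA2A, SRSF1, HNRNPA3 and SRSF8 had the largest increases and TRA2B rose with them. CLK1, HNRNPH2, CLK3, SRSF11 and SRSF4 had the largest decreases. Of the 38 members 19 were higher, 7 lower and 12 did not pass the edgeR test, against 61.9% of all genes that passed, 30.7% higher and 31.2% lower. The median log2 fold change was 0.12 for the members and -0.0029 for all genes, and above 100 CPM it was 0.12 for 26 members and 0.06 for all 2086 genes, of which 19 and 77.8% passed. This comparison shares its shControl libraries with hypoxia against normoxia in shControl, so the values of SRSF1, TRA2A, TRA2B and HNRNPAB in the 2 comparisons are not independent.

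SR proteins counted 5 higher and 3 lower. SRSF1 stood at 44.8 ± 0.862 CPM in shControl and 56.9 ± 0.824 CPM in shRIPOR3 (SD, n = 3). With every shRIPOR3 library above every shControl library, its log2 fold change was 0.35 ± 0.0427 (edgeR adjusted p = 1.73e-07). SRSF6, SRSF7 and SRSF3 were higher at 0.25 ± 0.0431, 0.22 ± 0.0419 and 0.15 ± 0.0362. SRSF8 had 17.4, 17.5 and 17.0 CPM in shControl and 21.4, 20.5 and 22.1 CPM in shRIPOR3, a change of 0.31 ± 0.0566. SRSF11 was lower at -0.21 ± 0.0518 and SRSF9 at -0.15 ± 0.0446. SRSF4 was lower at -0.20 ± 0.0546, but at -0.11 without hypoxia shControl replicate 3, its highest library there (adjusted p = 0.052). SRSF2, SRSF5 and SRSF10, at -0.09, -0.08 and 0.04, did not pass.

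TRA2A and TRA2B were both higher in shRIPOR3. TRA2A gave 0.35 ± 0.0370 (edgeR adjusted p = 1.68e-08) and TRA2B 0.29 ± 0.0382 (adjusted p = 5.86e-07), without overlap of the groups. Together they summed to 354 ± 15.2 CPM in hypoxia shControl and 435 ± 8.21 CPM in hypoxia shRIPOR3, beside 473 ± 5.13 and 478 ± 3.34 CPM in normoxia (SD, n = 3).

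CLK1 and CLK3 were lower. CLK1 stood at 99.6 ± 5.51 CPM in shControl and 68.7 ± 4.16 CPM in shRIPOR3, 1.45-fold lower, with a log2 fold change of -0.54 ± 0.0442 (edgeR adjusted p = 1.83e-10). The lowest shControl library exceeds the highest shRIPOR3 library. CLK3 gave -0.25 ± 0.0417 (adjusted p = 1.37e-05), again with no overlap. CLK2 and CLK4 gave -0.02 and -0.06 and did not pass.

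HNRNP genes counted 12 higher, 2 lower and 7 that did not pass. HNRNPAB (chr5:178204507-178211163) had 719 ± 15.1 CPM in shControl and 939.8 ± 20.8 CPM in shRIPOR3 (SD, n = 3), a log2 fold change of 0.39 ± 0.0357 (edgeR adjusted p = 1.50e-09). HNRNPA3 (chr2:177212563-177223958) had 747, 788 and 833 CPM in shControl and 961, 1047 and 971 CPM in shRIPOR3, a change of 0.33 ± 0.0560. The most abundant members whose symbols begin with HNRNPA, HNRNPA1 and HNRNPA2B1, did not pass (-0.12 and -0.06). HNRNPL, HNRNPA0, HNRNPH1, HNRNPUL1 and HNRNPF were higher at 0.28, 0.25, 0.24, 0.21 and 0.14. HNRNPH2 had 113, 119.8 and 117 CPM in shControl and 89.0, 93.7 and 87.3 CPM in shRIPOR3, and its change of -0.38 ± 0.0400 was opposite to that of HNRNPH1. HNRNPR was lower at -0.16, a call lost without hypoxia shControl replicate 3 (adjusted p = 0.072).

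The calls of 5 HNRNP genes with small increases depended on single libraries. HNRNPC (0.13) and HNRNPDL (0.12) did not pass without hypoxia shControl replicate 1 (adjusted p = 0.127 and 0.107) or hypoxia shRIPOR3 replicate 2 (0.123 and 0.123). HNRNPH3 (0.15) stood at 0.08 without hypoxia shRIPOR3 replicate 2 (adjusted p = 0.318) and did not pass without hypoxia shControl replicate 1 or 2, nor with DESeq2 (adjusted p = 0.12). HNRNPU (0.11) stood at 0.19 without hypoxia shControl replicate 3 and did not pass without hypoxia shControl replicate 1 or 2 or hypoxia shRIPOR3 replicate 2 or 3. HNRNPLL (0.12) did not pass without hypoxia shControl replicate 2 (adjusted p = 0.0567), and stood at 0.05 after every library was thinned to the smallest total (adjusted p = 0.509). Thinning also ended the calls of HNRNPDL, HNRNPH3 and HNRNPU (adjusted p = 0.0567, 0.0536 and 0.0775).

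The proteins that work with these regulators were taken from lists. Their counts in hypoxia in shControl stand beside 32.4% higher and 32.4% lower over all genes, or 85.7% called with a median of -0.22 above 100 CPM. Their counts with library totals stand beside 61.6% higher among all genes called under that scaling. In hypoxia in shControl, all 7 genes of the Sm ring, the protein core of the spliceosomal snRNPs, fell, with a median log2 fold change of -0.54 and with SNRPE at -0.63 ± 0.0441. With library totals 6 of the 7 passed. Of 17 genes of the U2 snRNP and 3′ splice site recognition 14 fell (13 with library totals, where 1 rose), with a median of -0.33, among them SF3A3 (-0.74 ± 0.0398) and the helicase DHX15 (-0.60 ± 0.0399). Of 17 genes of the tri-snRNP, which brings the catalytic snRNAs, 14 fell and 2 rose (10 and 2 with library totals), with a median of -0.31, and USP39 stood at -0.61 ± 0.0388. Of 10 genes of the U1 snRNP and 5′ splice site recognition 4 rose and 5 fell, and SNRPC, a U1 protein that helps to bind the 5′ splice site, stood at -0.92 ± 0.0538.

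Kinases and phosphatases of SR proteins other than CLK counted 2 higher and 8 lower of 10 in hypoxia in shControl (2 and 6 with library totals). SRPK1, the cytoplasmic kinase that lets SR proteins enter the nucleus, fell (-0.61 ± 0.0415), while DYRK1A, a nuclear-speckle kinase, stood at 0.75 ± 0.0531. Of 22 SR-related proteins, which carry arginine-serine domains without being classical SR proteins, 12 rose and 6 fell, with a median of 0.09 (13 and 4 with library totals, median 0.20). SON, a scaffold of nuclear speckles, stood at 1.02 ± 0.0352, NKTR at 0.82 ± 0.0415 and SRRM2, the other speckle scaffold, at 0.65 ± 0.0366. Of 20 relatives of hnRNPs under other symbols 4 rose and 11 fell (6 and 8 with library totals), with FUBP1 at -0.69 ± 0.0403 and TARDBP at -0.37 ± 0.0357.

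In shRIPOR3, where 25.2% of all genes were higher and 30.4% lower, the same lists gave, for hypoxia against normoxia, all 7 Sm genes lower with a median of -0.47 (5 with library totals), 3 U2 genes higher and 10 lower (6 and 9), 2 tri-snRNP genes higher and 12 lower (4 and 7), and 11 SR-related genes higher and 5 lower (16 and 4). The counts in brackets are with library totals, where 63.4% of all called genes were higher, against 45.3% with the TMM factors. Among genes above 100 CPM 82.3% passed, with a median of -0.18. SRPK1 stood at -0.59 ± 0.0414, SON at 0.89 ± 0.0349 and SRRM2 at 0.96 ± 0.0369. The hnRNP relatives, with 4 higher and 10 lower, counted 7 and 4 with library totals, and their median moved from -0.09 to 0.03. In the interaction 8 U2 genes, among them PUF60 (0.35 ± 0.0480), and 7 tri-snRNP genes, among them PRPF4 (0.31 ± 0.0504), passed the edgeR test above 0, each of 17, where 10.9% of all genes did and 39.3% of genes above 100 CPM passed in either direction.

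The RIPOR3 hairpin in hypoxia, where 30.7% of all genes were higher and 31.2% lower, gave these counts for the core spliceosome: 6 of 7 Sm genes higher with a median of 0.20, 14 U2 genes higher and 1 lower with a median of 0.23, and 12 tri-snRNP genes higher and 1 lower with a median of 0.17, where the median of all genes was -0.0029. Among genes above 100 CPM 77.8% passed in hypoxia with a median of 0.06, and 66.2% in normoxia with a median of 0.03. SF3B5, a small subunit of SF3b, stood at 0.72 ± 0.0734 in hypoxia, SNU13 at 0.48 ± 0.0407 and SNRPC at 0.48 ± 0.0532. In normoxia, against 25.1% higher and 20.6% lower over all genes, 6 of 7 genes of the Sm ring were higher with a median of 0.18, and the counts higher and lower were 5 and 3 for U2 genes and 7 and 5 for tri-snRNP genes. SR-related genes counted 4 higher and 7 lower in hypoxia, with RNPS1 at 0.42 ± 0.0369 and RSRP1 at -0.33 ± 0.0460. DYRK1B, a kinase related to DYRK1A, was lower at -0.89 ± 0.113 in hypoxia, and SYNCRIP, the relative of HNRNPR, was higher at 0.38 ± 0.0429.

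**Figure D4:**
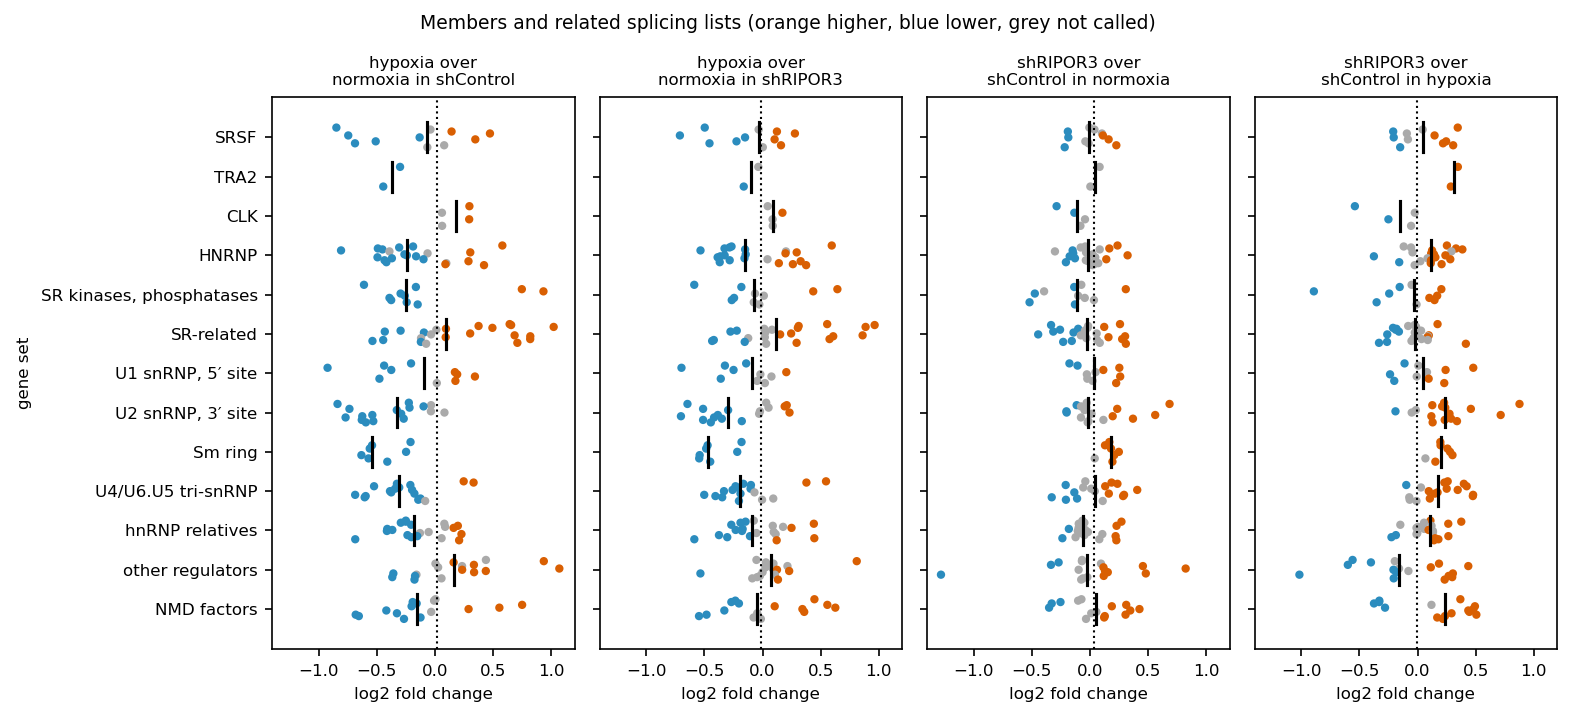
Log2 fold change of each tested gene in the SRSF, TRA2, CLK and HNRNP families and in the related lists, in the 4 comparisons of pairs of groups. Points are genes, black bars the median of each list and the dotted line the median of all tested genes. The median of the Sm ring is -0.54 and -0.47 in the hypoxia comparisons, and 0.18 and 0.20 in the hairpin comparisons.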

How the data were processed

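The authors deposited raw counts per gene symbol, 1 column per library for 12 libraries, per the file header and the values. The labels' protocols name a stranded mRNA kit and 2 µg of RNA, and GRCh38, featureCounts, STAR 2.5.3a and fastp 0.23.4 are listed in the submitters' processing notes. Annotation, strand setting and duplicate treatment are not stated, so reads of overlapping genes or near-identical copies may be lost or shared.

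The 15648 symbols that passed filterByExpr were fitted together with edgeR 4.0.16 under R 4.3.3, using TMM factors and a coefficient for each of the 4 groups. Quasi-likelihood F-tests were adjusted by Benjamini and Hochberg over all of them, threshold 0.05. The biological coefficient of variation was 3.74%. Levels are TMM-normalised CPM, and their precision is set by totals of 14750734 to 52526813. The code was tested on simulated data. Positions and exons are from GENCODE 29 and promoters from RefSeq.

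The members, lists and tests were chosen with earlier results of these data known. Named were all CLK and TRA2 genes, the 5 largest increases and decreases per comparison that passed with groups apart, up to 8 interaction genes by p, and up to 4 per list. Other members are named to account for all, and their values were seen first. Same-numbered libraries did not deviate together across groups (median correlation 0.00187 over 18 pairs), so replicate numbers were not used as pairs. Alternatives were DESeq2 1.42.0, median-of-ratios scaling, library totals, a replicate block, no low-count filter, 1 CPM in 3 libraries as the filter, the compared groups alone, a threshold of 0.01, leaving out each library, and thinning to the smallest total, the last chosen after seeing the data.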

Additional observations from a re-analysis of the deposited data

Results flagged for a closer look

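For 14 members the change in hypoxia differed between the lines in edgeR's test of the interaction, and the size given is the log2 fold change in shRIPOR3 minus that in shControl. Among SR proteins these were SRSF1 at 0.35, SRSF6 at 0.29, SRSF7 at 0.23 and SRSF5 at -0.24. Both TRA2 genes were among them, TRA2A at 0.26 and TRA2B at 0.28. Of the kinases, CLK1 differed by -0.25 and CLK3 by -0.21. The HNRNP genes were HNRNPAB at 0.30, HNRNPC at 0.27, HNRNPDL at 0.26, HNRNPK at 0.22, HNRNPUL1 at 0.17 and HNRNPH2 at -0.20. Adjusted p-values ran from 0.000117 for HNRNPAB to 0.0220 for HNRNPUL1. Over all genes 23.2% passed this test, and above 100 CPM 39.3% of all genes and 10 of 26 members did. With 3 libraries in each group, no library was set aside as an outlier, but each was left out in turn. The largest differences between replicates were those of hypoxia shControl replicate 3 from replicates 1 and 2. Their chi-square per degree of freedom over the counts was 6.18 and 5.84, against 3.34 between replicates 1 and 2. Without replicate 3, 14 members lay above 0 and 1 below, and CLK1, CLK3 and HNRNPH2 did not pass.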

How the results depend on the processing

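Of the members called in each comparison, 24 of 30 (hypoxia in shControl), 20 of 30 (hypoxia in shRIPOR3), 9 of 17 (hairpin in normoxia), 19 of 26 (hairpin in hypoxia) and 10 of 14 (interaction) kept their call and direction in every alternative run. With library totals HNRNPL turned to 0.011 in hypoxia in shControl (adjusted p = 0.823) and SRSF10 to 0.088 in hypoxia in shRIPOR3 (adjusted p = 0.041), because that scaling moves all genes up in hypoxia. The count of members below 0 in the interaction, 4, was 2 with no low-count filter, 2 at a threshold of 0.01 and 2 after thinning. Leaving out 1 library at a time gave 1 to 4 for it and 9 to 14 above 0. For members higher and lower, the ranges were 8 to 10 and 18 to 20 (hypoxia in shControl), 9 to 11 and 17 to 18 (hypoxia in shRIPOR3), 5 to 7 and 7 to 10 (hairpin in normoxia), and 15 to 19 and 5 to 8 (hairpin in hypoxia). The replicate block gave 9 and 20, 12 and 18, 7 and 10, 19 and 8, and 10 and 4 in the 5 comparisons. It ended the call of HNRNPUL1 in hypoxia in shControl (adjusted p = 0.0522) and brought that of HNRNPA1 for the hairpin in hypoxia (adjusted p = 0.0437). Genes of the related lists were rerun under the scalings only. Depth limits HNRNPCL1 and HNRNPUL2-BSCL2 most.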

Other observations

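Factors of nonsense-mediated decay, the route by which poison-exon transcripts of SR genes are removed, were counted as well, beside the shares of all genes called higher and lower. Of 15 genes, 3 rose and 9 fell in hypoxia in shControl (5 and 7 with library totals), against 32.4% and 32.4% of all genes, with the exon junction proteins MAGOHB and MAGOH at -0.66 ± 0.0364 and -0.68 ± 0.0420 and the kinase SMG1 at 0.75 ± 0.0609 as log2 fold changes (SE). In shRIPOR3 6 rose and 6 fell in hypoxia, against 25.2% and 30.4%, and library totals gave 7 and 5. Under that scaling 61.6% of all called genes were higher in hypoxia in shControl and 63.4% in shRIPOR3. With the RIPOR3 hairpin 10 were higher and 4 lower in hypoxia, against 30.7% and 31.2%, among them SMG5 at 0.49 ± 0.0368, and 7 were higher and 3 lower in normoxia, against 25.1% and 20.6%. In the interaction 6 lay above 0 and 1 below, against 10.9% and 12.3% of all genes, with UPF1, the helicase of the pathway, at 0.44 ± 0.0587.

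Other splicing regulators, some with tissue-selective roles, counted 7 higher and 4 lower of 17 in hypoxia in shControl. This stands against 32.4% and 32.4% of all genes, and library totals gave 12 and 2. In shRIPOR3 they counted 4 higher and 1 lower, against 25.2% and 30.4%, and library totals gave 11 and 1. Under that scaling 61.6% of all called genes were higher in hypoxia in shControl and 63.4% in shRIPOR3. CELF2, which binds GU-rich introns, stood at 1.07 ± 0.118 in shControl and differed by -0.98 ± 0.160 between the lines. With the RIPOR3 hairpin 7 of the 17 regulators were higher and 3 lower in normoxia, against 25.1% and 20.6% of all genes. In hypoxia 7 were higher and 7 lower with this hairpin, against 30.7% and 31.2%. RBFOX2, which binds GCAUG, was lower with it in both oxygen levels (-0.27 ± 0.0371 and -0.40 ± 0.0353), as was MBNL2 (-0.34 ± 0.0577 and -0.60 ± 0.0471). RBM24, a muscle splicing factor, was higher at both (0.48 ± 0.0535 and 0.30 ± 0.0494).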
